A study of Drosophila melanogaster with 8 samples.

Results

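Female larvae of the third instar that were homozygous for the rearrangement In(2)A4 (A4 larvae, 2 libraries) were compared with females of the same instar and the genotype A12/A12 (A12 larvae, 2 libraries) across all gene rows of the deposited FPKM files. These are 4 of the 8 libraries of the study and were chosen by their labels alone; the other 4 are adult females of the same genotypes, 2 to 3 days old, and serve here only to show where the larval difference departs from the adult one. All animals were raised on standard medium at 18 °C and RNA came from the whole organism, so fewer cells of a type and less RNA per cell cannot be told apart in any result that follows. A4/A4 larvae were picked as non-fluorescent homozygotes from a stock that carries A4 over the balancer CyO-GFP. The labels state no such selection for A12/A12, and the series design sets wild type animals against animals that show position effect variegation without stating which allele is which. The labels give neither the stage within the third instar nor whether replicates came from separate cultures, so p-values measure the spread between libraries only, and genotype, stock, picking and age within the instar cannot be told apart.

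Position effect variegation is the patchy silencing of a gene that a rearrangement has placed beside heterochromatin, the compact chromatin around centromeres. The third instar is the last larval stage of the fruit fly. During it juvenile hormone declines and pulses of the steroid ecdysone start wandering, glue production, hardening of the cuticle into a puparium and the breakdown of larval tissues, so many genes are transcribed in a fixed order within this one stage. In the salivary gland the pre-glue genes come first, the glue genes follow, and the Eig71E genes come later, with the approach of pupariation.

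The 4 larval libraries were of like depth: relative depth, read from the fragments behind 1 FPKM, ran from 1 to 1.22, and the median number of fragments behind 1 FPKM ran from 17.2 to 22.1. Genes of small RNAs took 62.7 to 73.6% of the summed FPKM. Across the 9106 genes tested, the libraries of one genotype correlated at r = 0.953 (A4) and r = 0.960 (A12), and libraries of different genotypes at 0.823 to 0.877; genes are not independent replicates, so these are descriptions. Before centring, the median log2(FPKM + 1) was 3.05 and 3.13 in A4 larvae and 3.69 and 3.41 in A12 larvae, a median shift of −0.47. Every difference given below is on the log2(FPKM + 1) scale after the median of each library was set equal, so it is relative to that shift; 1 unit is a 2-fold change for a well expressed gene and understates the change of a weak one. One library stood apart from its label. A4 replicate 2 held RNA of testis genes that was near 0 in the other larval libraries, although it is labelled female. The counts over all tested genes are therefore also given without it. List counts are given without it only where stated, and a list count given with all libraries alone may have changed without it.

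Of the 9106 tested genes, 1314 rose in A4 larvae (14.4%) and 1025 fell (11.3%) by limma at an adjusted p under 0.05. Counts within the lists below are to be set against these shares. Without A4 replicate 2, 1001 rose (11.0%) and 735 fell (8.07%). These fits share all other libraries; 911 genes rose in both, which is 69.3% of those with all libraries and 91.0% of those without the doubted one, and 636 fell in both (62.0% and 86.5%). Among the genes that rose the median difference was 1.50, with 442 above 2 and 94 above 4. Among those that fell it was −1.05, with 158 below −2 and 37 below −4. After centring, the genotypes were apart in all 1314 and all 1025 called genes, with no overlap of their libraries; A4 lay above in 32.0% of all tested genes and below in 32.1%. In the deposited FPKM, where the −0.47 shift is kept, A4 lay above A12 in 1223 of the genes that rose, against 16.0% of all tested genes, and below in all 1025 that fell, against 59.4%. Statements below that genotypes did not overlap are on the deposited FPKM. A gene enters by its mean over the 4 libraries, so one that passed the filter only through the genotype where it is high could hardly move the other way; such members are counted where they make up much of a list. A12 replicate 1 carried more of the calls than the other libraries: without it 742 genes rose and 503 fell. Without centring 861 rose and 2637 fell, so the balance of the directions rests on the scaling.

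**Figure D1:**
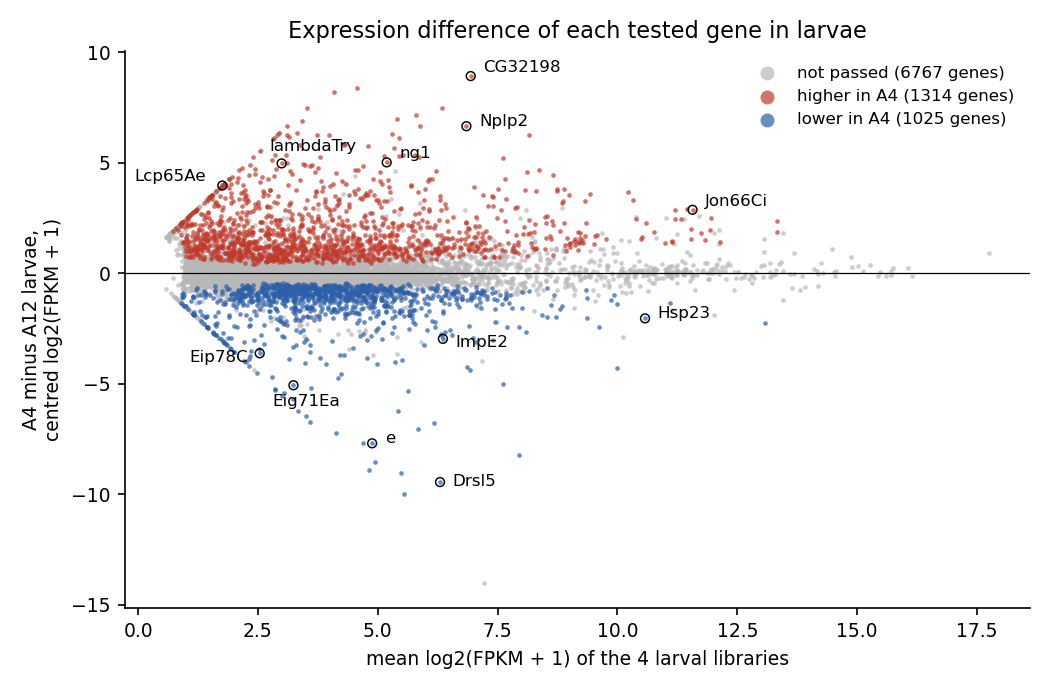
Each point is 1 of the 9106 tested genes. The x axis is its mean log2(FPKM + 1) over the 4 larval libraries without centring, and the y axis its A4 minus A12 difference on the centred log2(FPKM + 1) scale. Coloured points passed the test (1314 higher and 1025 lower in A4), grey points did not (6767), and the farthest points lie beyond 8 in both directions.

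The genes that respond to ecdysone lay lower in A4 larvae. Of 16 tested regulators among 21 listed (the receptor, its early targets and the genes that time the response), 8 fell and none rose, with a median difference of −1.02 against −0.01 over all tested genes; 4 of the 16 averaged under 1 FPKM in A4 larvae, and 1 of the 16 lay above the median of all tested genes. At an unadjusted p under 0.05, 10 were lower and 0 higher. Eip78C, a nuclear receptor gene induced early by ecdysone (dm3, chromosome 3L, 21219709 to 21259603), was at 0.487 and 0.347 FPKM in A4 replicates 1 and 2 and at 38.8 and 13.3 in A12 replicates 1 and 2. The A4 libraries were both near the floor and did not overlap with A12; the difference was −3.62 (SE 0.39, adjusted p = 0.00112). E23, an ecdysone-induced ABC transporter that damps the response, was at 2.70 and 1.68 FPKM against 26.6 and 12.9, a difference of −2.18 (SE 0.29, adjusted p = 0.00261). Eip93F, a factor of salivary gland death and adult specification, was at 0.156 and 0.195 FPKM against 3.85 and 2.11 and fell by 1.27. Eip63E, an ecdysone-induced kinase gene, fell by 1.06. Other members had differences that did not pass. EcR, which encodes the receptor itself, was at 20.3 and 18.2 FPKM against 33.7 and 27.4 (difference −0.18, adjusted p = 0.561), and br, the Broad factors of metamorphosis, was at 8.02 and 3.44 FPKM against 29.5 and 14.7 (−1.33, adjusted p = 0.0577). The number that fell was 7 without A4 replicate 2 and 5 without A12 replicate 1, and 12 without centring.

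The ImpE genes, first isolated as ecdysone-induced transcripts of imaginal discs, moved the same way. ImpE2, which encodes a secreted protein of the disc epithelium, was at 21 and 27.6 FPKM in A4 larvae and at 355 and 202 in A12 larvae, and it fell by 2.96 (SE 0.21, adjusted p = 0.000264). ImpE3 was at 2.53 and 2.12 FPKM against 46.4 and 38.1 and fell by 3.24 (SE 0.16, adjusted p = 6.3e-05). ImpE1 and Eip71CD fell too (differences −1.71 and −1.02). In these 4 genes the genotypes did not overlap, and all 4 kept their call without A4 replicate 2. Of the 6 tested members of the list 4 fell (3 without A12 replicate 1) and 1 rose, the lactate dehydrogenase gene ImpL3 (0 rose without A4 replicate 1, and 2 without A4 replicate 2). On the side of hormone supply the changes were small: of 10 tested genes in the ecdysone synthesis list 3 fell and 1 rose. Start1, a lipid-binding protein gene of the steroid-making gland, fell by 0.93 and sro, a dehydrogenase of the pathway, by 0.98. The member that rose was Cyp18a1, which does not make ecdysone but encodes the enzyme that inactivates it. Cyp18a1 was at 4.01 and 3.44 FPKM against 2.17 and 1.56 and rose by 1.19 (SE 0.18, adjusted p = 0.00388 by limma). Its call was lost without centring. The number of synthesis genes that fell was 1 without A4 replicate 1, A4 replicate 2 or A12 replicate 2.

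Genes linked to juvenile hormone included 4 of 10 tested that rose and none that fell (at an unadjusted p under 0.05, 5 were higher and 1 lower; without A12 replicate 2, 1 fell). JhI-26, named for its induction by juvenile hormone, was at 103 and 133 FPKM in A4 larvae and at 6.34 and 12 in A12 larvae. It rose by 4.05 (SE 0.35, adjusted p = 0.000529), with no overlap. Jheh3 and Jheh1, epoxide hydrolases that degrade the hormone, rose by 2.41 and 1.54. The gene to, takeout, a carrier-like protein tied to feeding and to the clock, was at 2.89 and 1.88 FPKM against 0 and 0.0816 and passed as higher.

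In the salivary gland lists, all 3 tested pre-glue genes rose, with a median difference of 5.02, and all 3 rose whichever library was left out. The 3 lie side by side on the X chromosome: ng2 at 3134059 to 3134604, ng3 at 3135524 to 3136117 and ng1 at 3136445 to 3136967. ng1 was at 168 and 184 FPKM in A4 larvae and at 4.40 and 9.40 in A12 larvae, a difference of 5.02 (SE 0.36, adjusted p = 0.000262). ng2 was at 60.1 and 88.6 FPKM against 0.914 and 2.58, a difference of 5.28 (SE 0.38, adjusted p = 0.000264). ng3, the most abundant of them per length, was at 1040.2 and 1485 FPKM against 135 and 224, a difference of 3.28 (SE 0.35, adjusted p = 0.00108). Neither library of one genotype came near those of the other. The genes ng1 and ng2 are close copies, so fragments may have been divided between them in a way the files do not record.

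Of 7 tested glue genes, whose proteins fix the puparium to its support, 1 fell (14.3%, against 11.3% of all tested genes) and none rose. Sgs5 (chromosome 3R, 13421084 to 13421834) was at 1159 and 1216 FPKM in A4 larvae and at 3819.8 and 4373 in A12 larvae and fell by 1.32 (SE 0.19, adjusted p = 0.00354). Its call was lost with the spread taken from the larval libraries alone, where 0 glue genes passed; 2 fell without A4 replicate 1 or A12 replicate 1, and 6 without centring. Sgs3 was at 133 and 103 FPKM against 182 and 428 (−0.79, adjusted p = 0.243), and Sgs4 was at 36.7 and 11 against 68.6 and 58.1 (−1.13, adjusted p = 0.14). Eig71Ee (chromosome 3L, 15647572 to 15649110), listed with the glue genes but lying in the Eig71E cluster, was at 199.9 and 143 FPKM in A4 larvae and at 373 and 463 in A12 larvae and did not pass (−0.83, adjusted p = 0.0734). The other 10 genes of that cluster, which encode small secreted proteins, were all under 1 FPKM in both A4 larvae. For 6 of them A12 was high enough to carry them past the filter, and these 6 fell, a direction that their entry through A12 favoured. Eig71Ea (15642226 to 15642761) was at 0.325 and 0.469 FPKM in A4 larvae and at 69.6 and 57.2 in A12 larvae. It fell by 5.06 (SE 0.17, adjusted p = 1.81e-05). Eig71Eb, Eig71Ec and Eig71Ed, its neighbours, were at 0 to 0.360 FPKM in A4 larvae and at 10.9 to 35.8 in A12 larvae.

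**Figure D2:**
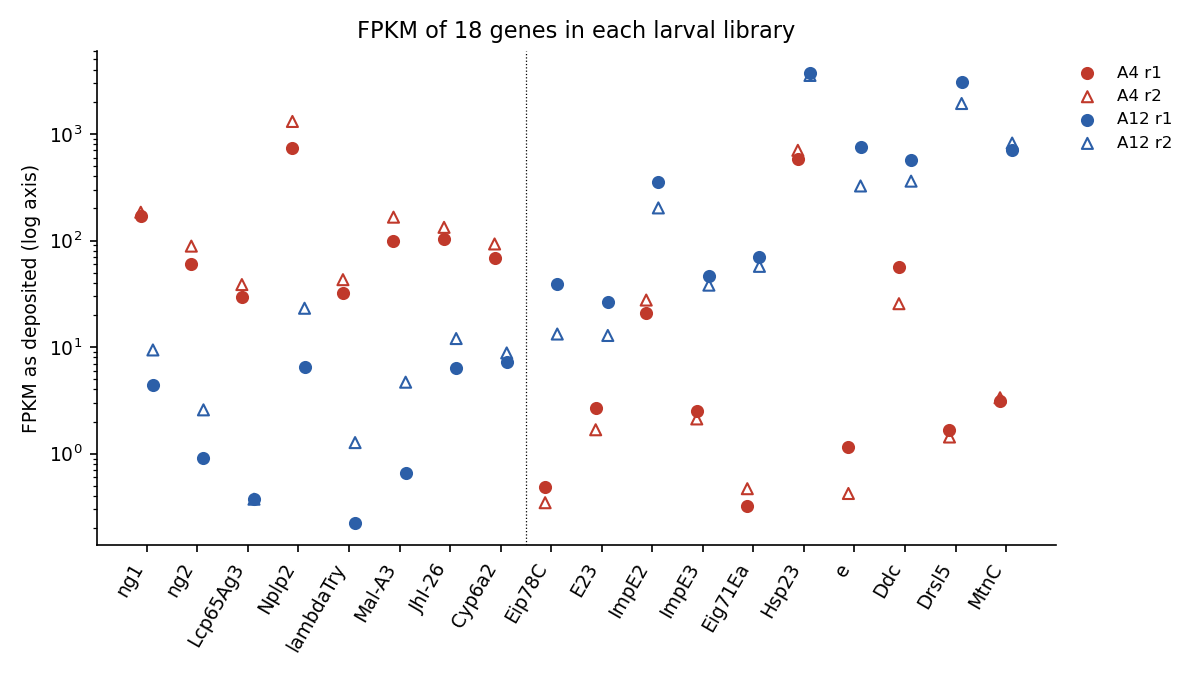
Deposited FPKM on a logarithmic axis in each larval library for 18 genes, red for A4 and blue for A12, with filled circles for replicate 1 and open triangles for replicate 2. The 8 genes before the dotted line are higher in both A4 libraries (ng1 at 168 and 184 against 4.40 and 9.40) and the 10 after it are lower in both (Eig71Ea at 0.325 and 0.469 against 69.6 and 57.2).

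Larval cuticle proteins, the chitin-binding structural proteins that the epidermis secretes, were mostly higher in A4 larvae. Of 16 tested among 35, 12 rose and 1 fell, with a median difference of 3.48; 6 of the 16 averaged under 1 FPKM in A12 larvae and so entered through A4. In all, 11 rose and 1 fell without A4 replicate 2. Cpr47Ec (chromosome 2R, 7146822 to 7147344) was at 412 and 612 FPKM in A4 larvae and at 1.93 and 15 in A12 larvae, a difference of 6.66 (SE 0.77, adjusted p = 0.00146). Lcp65Ag3 was at 29.2 and 38.6 FPKM in A4 larvae and at 0.374 in both A12 larvae, a difference of 5.11 (SE 0.21, adjusted p = 3.53e-05). Cpr47Eg was at 62.0 and 65.2 FPKM against 0 and 0.494, and Lcp65Aa at 20.3 and 19.4 against 0.294 and 1.10. The genotypes did not overlap in any of these genes. The member that fell, Cpr47Ee, and the pupal cuticle genes Cpr49Ac and Pcp went the other way. Cpr49Ac was at 305 and 271 FPKM against 2393 and 1915 and fell by 2.43 (SE 0.16, adjusted p = 0.000194), and Pcp was at 254 and 308 against 1765 and 1379.6 and fell by 2.02. Of the 6 tested pupal cuticle genes these 2 fell and 1 rose, Edg91 (0 rose without A4 replicate 1 or A12 replicate 1, 2 rose without A4 replicate 2).

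Of 31 tested chitin genes 11 rose (35.5%) and 4 fell (12.9%, close to the 11.3% of all tested genes); 8 rose and 6 fell without centring. Those that rose included obst-F and obst-H, chitin-binding proteins of the obstructor family: obst-F was at 71.1 and 99.4 FPKM against 9.74 and 11.4 and rose by 3.34 (SE 0.35, adjusted p = 0.00102). Those that fell included the chitinase genes Cht11 (5.23 and 5.50 FPKM against 26.1 and 20.9) and Cht3 (45.5 and 42.3 against 169 and 119.8), which differed by −1.48 and −1.22. The number that rose was 6 without A4 replicate 1 or A12 replicate 1. Among 13 tested peritrophins and mucins, which line the gut, 7 rose and 2 fell, but only 1 rose without A4 replicate 1 or A12 replicate 1 and 1 fell without A4 replicate 2 or A12 replicate 1. Muc68Ca was at 103 and 80.7 FPKM against 10.6 and 14.3 and rose by 3.25, and Muc68E was at 0.495 and 0.771 against 24.8 and 11.3 and fell by 2.99. A single Osiris gene passed the filter, Osi2, and it rose by 2.20. It averaged under 1 FPKM in A12 larvae and so entered through A4, which favoured this direction.

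The list of tanning and dopamine genes, which colour and harden the cuticle, moved both ways: of 23 tested, 8 fell and 7 rose, with a median of −0.08. Several genes of dopamine and beta-alanine supply were among those that fell. The gene e, ebony, which joins beta-alanine to dopamine (chromosome 3R, 17055561 to 17062900), was at 1.16 and 0.423 FPKM in A4 larvae and at 757 and 325 in A12 larvae. It fell by 7.69 (SE 0.51, adjusted p = 0.000194). The gene b, black, which makes beta-alanine, was at 8.64 and 3.63 FPKM against 506 and 269.8 and fell by 5.34 (SE 0.51, adjusted p = 0.000716). Along the same route, ple, tyrosine hydroxylase, was at 12.5 and 2.10 FPKM against 303 and 77.7 and fell by 4.12, which became −3.02 without A4 replicate 2. Ddc, dopa decarboxylase, was at 55.9 and 25.5 FPKM against 567 and 361 and fell by 3.08, and Pu, which makes the cofactor of tyrosine hydroxylase, was at 14.8 and 12.9 against 143 and 84.0 and fell by 2.44. In each of these genes both A4 libraries lay below both A12 libraries. yellow-c, of the yellow family, was at 23.7 and 19.9 FPKM against 829 and 511. Those that rose included yellow-e2, yellow-f2 and the phenol oxidase genes proPO-A1 and proPO45. The number that rose was 4 without A4 replicate 2 or A12 replicate 1.

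Digestive enzymes were higher in A4 larvae. Of 29 tested trypsins and Jonah proteases, the serine proteases of the midgut, 21 rose and none fell, with a median of 1.91; at an unadjusted p under 0.05, 25 were higher and 0 lower. lambdaTry was at 32.1 and 42.9 FPKM against 0.223 and 1.27, a difference of 4.97 (SE 0.41, adjusted p = 0.000433). zetaTry was at 81.6 and 77.7 FPKM against 7.09 and 10.1, and thetaTry at 125 and 173 against 20.2 and 30.6. Both genotypes stood clear of each other in these 3 neighbours on chromosome 2R. The count depended on the libraries: 13 rose without A4 replicate 1, 9 without A4 replicate 2 and 10 without A12 replicate 1 (with 1 fall), against 24 without A12 replicate 2. Of 15 tested carbohydrases 6 rose and 1 fell; 4 rose without A4 replicate 1 or A12 replicate 1. Mal-A3, a maltase (chromosome 2R, 4343414 to 4345390), was at 98.9 and 166 FPKM against 0.661 and 4.68, a difference of 5.85 (SE 0.61, adjusted p = 0.000991), and its neighbours Mal-A2 and Mal-A4 rose by 3.08 and 4.18. The one that fell was Gal, beta-galactosidase (22.8 and 27.1 FPKM against 122 and 99.5). Lysozymes did not follow: LysX was at 3.37 and 6.78 FPKM against 797 and 980.2, LysC at 1.78 and 5.36 against 308 and 615, and both fell (differences −6.79 and −6.24), whereas LysS was at 5365 and 9197 against 629 and 3994 and did not pass (adjusted p = 0.0649). Of 6 tested lysozymes these 2 fell and, without A12 replicate 2, 2 others rose. Lysozyme genes are near copies, so their reads may have been divided unequally.

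Detoxification enzymes rose widely. Of 55 tested cytochrome P450 genes 32 rose and 1 fell, with a median of 1.16, and 26 rose and 3 fell without A4 replicate 2. Cyp6a2, known from insecticide resistance (chromosome 2R, 2667254 to 2668996), was at 69.2 and 92.8 FPKM against 7.20 and 8.81, a difference of 3.64 (SE 0.24, adjusted p = 0.000194). Cyp6w1 was at 7.08 and 6.93 FPKM against 0.165 and 0.203 and rose by 3.22, and Cyp4s3 was at 13.9 and 8.60 against 1.27 and 1.34 and rose by 2.83. Of 31 tested glutathione transferases, which attach glutathione to foreign compounds, 15 rose and 1 fell (10 rose without A12 replicate 1, and 0 fell when any one library was left out). GstE6 was at 55.2 and 85.1 FPKM against 3.76 and 6.08, a difference of 4.04 (SE 0.32, adjusted p = 0.000354), and GstD7 was at 9.24 and 16.5 against 0 and 0.240. Among 20 tested odorant-binding proteins, small carriers that also occur outside sense organs, 6 rose and 2 fell, which turned to 3 and 5 without centring (3 rose without A4 replicate 2 or A12 replicate 2, and 4 without A12 replicate 1). Obp56e was at 25.0 and 35.9 FPKM against 2.08 in both A12 libraries and rose by 3.79, while Obp83ef was at 3.61 and 6.62 against 78.0 and 89.6 and fell by 3.38.

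Energy metabolism was higher in A4 larvae relative to the median gene. Of 21 glycolysis and glycogen genes 18 rose and none fell, with a median of 1.32; at an unadjusted p under 0.05, 20 were higher and 0 lower. Pgm, phosphoglucomutase, was at 283 and 265 FPKM against 48.4 and 83.4, a difference of 2.55 (SE 0.35, adjusted p = 0.00284); its model overlaps that of CG12272, which was listed at 0 in both A4 libraries. Gpdh, glycerol-3-phosphate dehydrogenase, was at 119 and 85.9 FPKM against 23.1 and 30.9 and rose by 2.34, and the hexokinase gene Hex-C was at 3.35 and 3.62 against 1.23 and 0.876 and rose by 1.59. Of 37 genes of oxidative phosphorylation and the citrate cycle 25 rose and none fell (median 1.08; 32 higher and 0 lower at an unadjusted p under 0.05). Mdh2, the mitochondrial malate dehydrogenase, was at 223 and 168 FPKM against 90.2 and 79.6 and rose by 1.64, and SdhA of succinate dehydrogenase was at 90.7 and 87.7 against 45 and 46.7 and rose by 1.40. The counts depended on the settings. For glycolysis 8 rose without A4 replicate 1 or A12 replicate 1, 10 without A4 replicate 2 and 11 without centring. For the respiratory list 11 rose without A4 replicate 1, 13 without A4 replicate 2, 7 without A12 replicate 1 and 12 without centring.

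Among 31 tested genes of lipid metabolism 11 rose and 5 fell, which turned to 9 and 11 without centring. Men, the malic enzyme that supplies NADPH for fat synthesis, was at 213 FPKM in both A4 libraries and at 25.9 and 41.8 in A12 larvae, a difference of 3.12 (SE 0.32, adjusted p = 0.000904). ACC, which starts fatty acid synthesis, was at 43.2 and 28.5 FPKM against 10.3 and 10.2, and desat1, a fatty acid desaturase, at 303 and 212 against 91.7 and 90.3; both stood clear of A12 and rose by 2.14 and 1.93. The number that fell was 2 without A4 replicate 1, A4 replicate 2 or A12 replicate 2 and 3 without A12 replicate 1, where 7 rose. Of 21 tested genes of amino acid metabolism 6 rose and 3 fell, which turned to 3 and 9 without centring (4 rose without A12 replicate 1; 2 fell without A4 replicate 2, A12 replicate 1 or A12 replicate 2). Uro, urate oxidase of the Malpighian tubules, was at 52.1 and 53.8 FPKM against 1.31 and 3.12 and rose by 4.59 (SE 0.36, adjusted p = 0.000369). Of 6 tested serum and fat body proteins Lsp1beta rose, from 3294 and 8535 FPKM in A12 larvae to 23372 and 17336 in A4 larvae (difference 2.38, adjusted p = 0.0286); 0 rose without A4 replicate 1 or A12 replicate 1 and 2 without A12 replicate 2. That call was lost for Lsp1beta without A4 replicate 2 (adjusted p = 0.065), and the other larval serum protein genes of the list did not pass. Lsp1alpha was at 5703 and 3105 FPKM against 327 and 3149 (2.51, adjusted p = 0.119), Lsp1gamma at 10758 and 11484 against 10333 and 10989 (0.52, adjusted p = 0.253), and Lsp2 was at 10549 and 10709 against 20786 and 24322 (−0.62, adjusted p = 0.174).

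Muscle genes rose in 14 of 27 tested cases and fell in 2, with a median of 1.35. TpnC47D, a troponin C, was at 83.1 and 61.5 FPKM against 2.14 and 4.78, a difference of 4.55 (SE 0.37, adjusted p = 0.00042), and Mlc2, a myosin light chain, was at 1243 and 1195 against 277 and 425 and rose by 2.29. Strn-Mlck, a myosin kinase gene with long transcripts, was at 4.48 and 3.60 FPKM against 23.1 and 18.3 and fell by 1.65. The number that rose was 8 without A4 replicate 1 or A12 replicate 1, and 1 fell without A4 replicate 1, A4 replicate 2 or A12 replicate 1. Of 22 tested subunits of the vacuolar proton pump 6 rose and none fell (10 higher and 1 lower at an unadjusted p under 0.05), with 2 without A4 replicate 1 or A12 replicate 1, 9 without A4 replicate 2 and 3 without A12 replicate 2; Vha100-4 was at 19.4 and 18.7 FPKM against 2.42 and 4.37 and rose by 2.68. Neuropeptide genes rose at the share of all tested genes, 14.3% against 14.4%. Nplp2, a neuropeptide-like precursor (chromosome 3L, 13349634 to 13350323), was at 744 and 1309.5 FPKM in A4 larvae and at 6.51 and 23.1 in A12 larvae, a difference of 6.66 (SE 0.63, adjusted p = 0.000682 by limma). It was 1 of 3 neuropeptide genes of 21 tested that rose (2 without A4 replicate 1 or A12 replicate 1). Of 25 tested insulin pathway genes 2 fell, Ilp6 and Akt1, and Ilp2 rose; 0 passed in either direction without A4 replicate 2 or A12 replicate 1, 1 fell and 0 rose without A4 replicate 1, and 2 passed each way without A12 replicate 2.

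Protein breakdown and cell death genes lay lower. Of 28 tested proteasome subunits 19 fell and none rose, with a narrow spread around a median of −0.86; at an unadjusted p under 0.05, 22 were lower and 0 higher. Rpn6, of the regulatory lid, was at 78.2 and 71.6 FPKM against 235 and 198, a difference of −1.06 (SE 0.16, adjusted p = 0.00413), and Prosbeta2, a catalytic subunit, was at 79.7 and 79.2 against 275 and 201. Without A4 replicate 1, 7 fell, without A12 replicate 1, 9, without A12 replicate 2, 10, and without A4 replicate 2, 17; with the spread estimated from the larval libraries alone 5 fell. Of 25 tested genes of cell death and autophagy 10 fell and none rose (16 lower and 1 higher at an unadjusted p under 0.05; without A12 replicate 2, 1 rose), with a median of −0.64. Ark, the adaptor that activates caspases, was at 3.72 and 3.89 FPKM against 22.9 and 14.9 and fell by 1.56 (SE 0.15, adjusted p = 0.000733). Nc, the initiator caspase Dronc, was at 10.6 and 13.1 FPKM against 65.8 and 40.2 and fell by 1.58, and Atg7, an enzyme of autophagosome formation, was at 4.64 and 4.71 against 26.9 and 18.3 and fell by 1.57. Genotypes did not overlap in these genes, and all 3 kept the call without A4 replicate 2.

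Small heat shock proteins, chaperones that are also induced by ecdysone, fell in 5 of 7 tested cases, and in 4 whichever library was left out. Hsp23 (chromosome 3L, 9374982 to 9375865) was at 587 and 702 FPKM against 3712 and 3539, a difference of −2.04 (SE 0.22, adjusted p = 0.00109). Hsp67Bc was at 25.7 and 24.6 FPKM against 269 and 219 and fell by 2.76. Among the other heat shock proteins 3 of 13 tested rose (2 without A12 replicate 1 or A12 replicate 2) and none fell (6 higher and 0 lower at an unadjusted p under 0.05), among them Hsp70Bb at 5.07 and 6.98 FPKM against 3.55 and 1.75 and its near copy Hsp70Bc. TotA, a secreted stress protein of the Turandot family, was at 79.2 and 102 FPKM against 793 and 558 and fell by 2.42; TotF, the only other one tested, did not pass.

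Immune and metal-binding genes held some of the largest differences. Drsl5, a Drosomycin-like peptide gene (chromosome 3L, 3316781 to 3317144), was at 1.67 and 1.43 FPKM in A4 larvae and at 3068 and 1930.0 in A12 larvae. It fell by 9.44 (SE 0.21, adjusted p = 1.05e-05), with both A4 libraries close together. Drsl2, its neighbour, was at 21.7 and 37.3 FPKM against 1702 and 1001 and fell by 5.01. Of 6 tested Drosomycin family genes 4 fell (3 without A12 replicate 1), with a median of −3.05; 3 of the 6 averaged under 1 FPKM in A4 larvae. The 19 other antimicrobial peptides tested by limma gave 0 calls (1 higher and 2 lower at an unadjusted p under 0.05); 3 fell without A4 replicate 1, and 1 rose without A4 replicate 2 or A12 replicate 1. CecA1 and CecA2, cecropins, differed widely between the A4 replicates. CecA1 was at 27.7 and 2.07 FPKM in A4 larvae and at 156 and 36.2 in A12 larvae. Its A12 replicates were thus also far apart, and both A4 libraries lay below both of A12. PGRP-SB2, a peptidoglycan recognition gene that shares no bases with another gene row, was listed at 0 in both A4 libraries and at 196 and 106 FPKM in A12 larvae. Its list was called in 17.9% of tested members each way, against 14.4% higher and 11.3% lower over all tested genes. Of 28 tested genes of peptidoglycan recognition and Toll or Imd signalling 5 rose and 5 fell; 3 rose without A4 replicate 1 or A12 replicate 2, 3 fell without A12 replicate 2, and 2 each way without A12 replicate 1. Of 14 tested blood cell genes 5 rose and none fell (8 higher and 0 lower at an unadjusted p under 0.05), with 2 without A4 replicate 1 and 3 without A4 replicate 2 or A12 replicate 1; Hml, hemolectin, was at 31.5 and 25.6 FPKM against 8.11 and 14.9. MtnC, a metallothionein gene (chromosome 3R, 16186030 to 16186356), was at 3.12 and 3.34 FPKM against 712 and 821 and fell by 7.04 (SE 0.35, adjusted p = 6.3e-05). MtnA, of the same family, was at 761 and 1027 FPKM against 489 and 377 and rose by 1.50, so these 2 metallothioneins went opposite ways. In all, 3 of 14 tested metal genes rose and 2 fell (21.4% and 14.3%, against 14.4% and 11.3% of all tested genes), which turned to 2 and 3 without centring. Of those that rose 2 passed without either A4 replicate or without A12 replicate 2 and 1 without A12 replicate 1, and of those that fell, MtnC and Tsf2, 1 did so without either A4 replicate or without A12 replicate 1.

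Large differences were also seen in genes without a name beyond their number. CG32198 (chromosome 3L, 18520076 to 18520545) was at 2308 and 2307 FPKM in A4 larvae and at 1.06 and 19.7 in A12 larvae, a difference of 8.92 (SE 1.08, adjusted p = 0.00177). CG32073 was at 362 and 370.2 FPKM against 0.498 and 0.525, a difference of 8.38, and CG12522, 0.858 kb away, was at 103 and 134 against 1.32 and 0.948, a difference of 6.25. CG14664 (chromosome 3R, 1049861 to 1050491) was at 0 and 0.605 FPKM against 2386 and 1282, a difference of −9.97 (SE 0.45, adjusted p = 4.81e-05). A run of 3 neighbours on chromosome 3L went down together. CG7924 (14226569 to 14227709) was at 0.538 and 0.772 FPKM against 1709 and 843, CG34244 (14228153 to 14229041) at 0.198 and 0 against 1119.8 and 467, and CG7906 (14229735 to 14231372) at 0.0653 and 0.759 against 1038 and 472. The gaps between them are 0.443 and 0.693 kb. On the X chromosome CG32762 and CG4151, 0.645 kb apart, fell. CG32762 was listed at 0 in both A4 libraries and at 122 and 84.0 FPKM in A12 larvae, and CG4151 was at 0 and 0.494 against 300.3 and 212. Elsewhere lcs, on the X chromosome, was at 1638 and 2763 FPKM against 38.8 and 34.9 and rose by 6.27. Apart from CG12522, these genes were named by size on the condition that they passed without A4 replicate 2 and without overlap, so neither trait adds support.

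**Figure D3:**
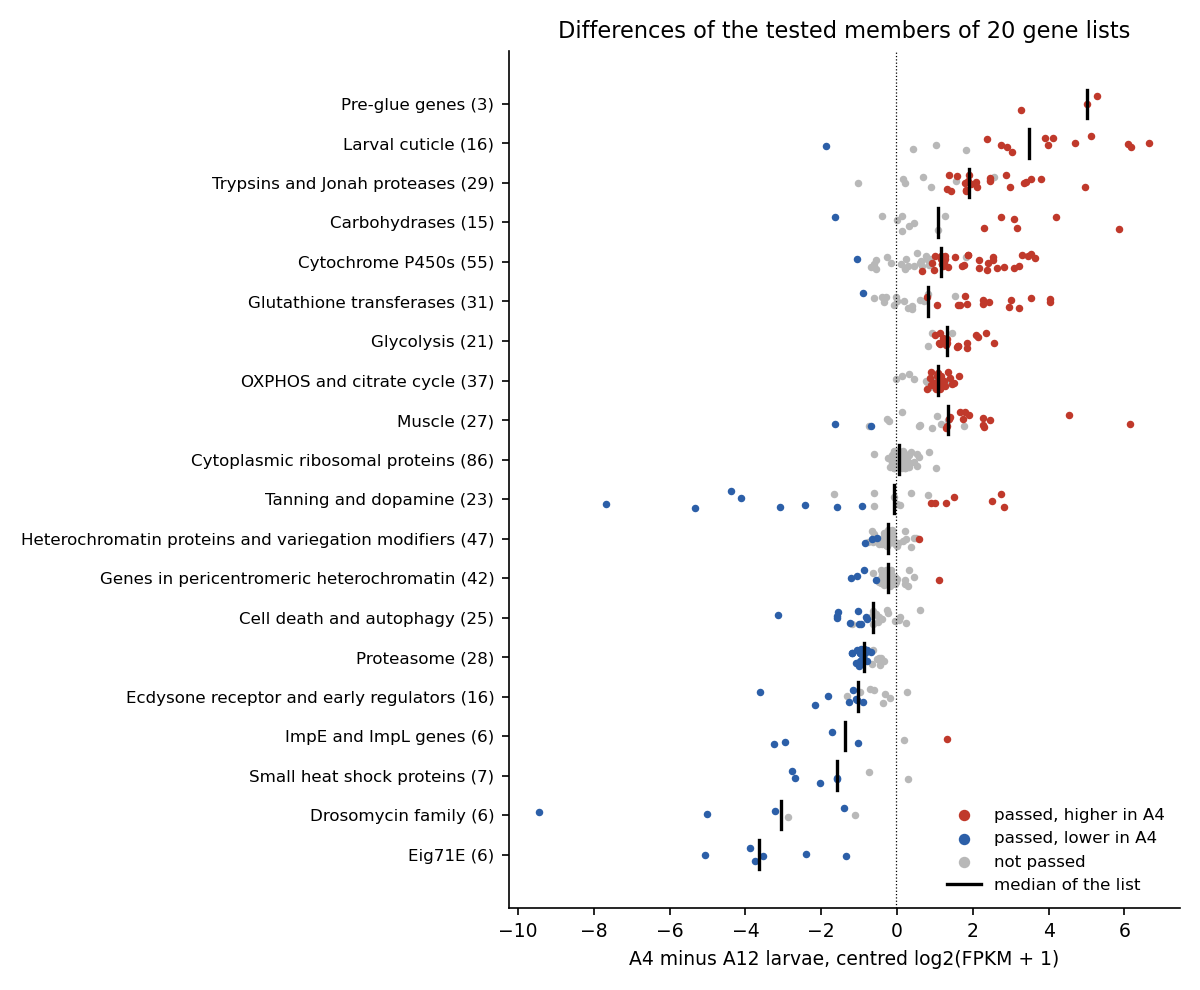
A4 minus A12 difference in larvae, on the centred log2(FPKM + 1) scale, of every tested member of 20 gene lists, with the number tested in parentheses, the list median as a bar and the median over all genes (−0.01) as a dotted line. Red members passed and were higher in A4, blue passed and were lower, grey did not pass; medians run from 5.02 for the pre-glue genes to −3.65 for the 6 Eig71E genes that entered through A12, with the 86 cytoplasmic ribosomal proteins at 0.07.

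The balance of the directions within several lists rested on the centring. Without it the cytochrome P450 genes gave 26 that rose and 5 that fell in place of 32 and 1, the glutathione transferases 14 and 3 in place of 15 and 1, the carbohydrases 6 and 2 in place of 6 and 1, and the peritrophins and mucins 5 and 4 in place of 7 and 2. The tanning genes gave 5 and 10 in place of 7 and 8, the Toll and Imd list 3 and 8 in place of 5 and 5, the blood cell genes 3 and 2 in place of 5 and 0, and the proton pump 2 and 1 in place of 6 and 0. Juvenile hormone genes gave 4 and 1 in place of 4 and 0, ecdysone synthesis 0 and 5 in place of 1 and 3, the insulin pathway 0 and 5 in place of 1 and 2, pupal cuticle 0 and 3 in place of 1 and 2, and neuropeptides 2 and 1 in place of 3 and 0. The serum proteins gave 1 and 1 in place of 1 and 0, and the other heat shock proteins 2 and 2 in place of 3 and 0. Among the lists with falls it gave 18 for cell death and autophagy in place of 10, 12 for the ecdysone regulators in place of 8, 6 for the glue genes in place of 1, 6 for the Drosomycin family in place of 4, and 28 for the proteasome in place of 19. Rises numbered 12 for the respiratory list in place of 25 and 11 for glycolysis in place of 18, with 0 falls in both. Ovary genes gave 3 falls and the other antimicrobial peptides 2, in place of 0. In the smaller lists of growth and sex genes it gave 4 and 2 for mitochondrial ribosomal proteins in place of 8 and 1, 1 and 9 for DNA replication in place of 1 and 2, 1 and 9 for eye pigments in place of 1 and 3, 1 and 11 for Enhancer of split in place of 1 and 3, and 1 and 2 for dosage compensation in place of 1 and 0. With the spread estimated from the larval libraries alone, rises numbered 10 for trypsins and Jonah proteases in place of 21, 14 for the respiratory list, 8 for glycolysis, 9 for muscle, 7 for lipid metabolism, 3 for tanning, 2 for the proton pump and 1 for peritrophins and mucins.

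Few genes of heterochromatin, the subject of the series, passed. Heterochromatin proteins and modifiers of variegation fell in 6.38% and rose in 2.13% of those tested. Genes inside pericentromeric heterochromatin fell in 9.52% and rose in 2.38%. Over all tested genes 11.3% fell and 14.4% rose. Most members of both lists nevertheless lay low: 9 of 47 and 7 of 42 were above the median of all tested genes. At an unadjusted p under 0.05 by limma, 10 were lower and 3 higher in the list of proteins and modifiers. Among the genes inside pericentromeric heterochromatin 10 were lower and 1 higher. Of 47 tested heterochromatin proteins and modifiers of variegation 3 fell and 1 rose, with a median of −0.24: mod(mdg4), Rpd3 and BEAF-32 fell (differences −0.85, −0.66 and −0.54), and Rif1 rose by 0.59. Without centring 20 fell and 0 rose, without A4 replicate 2, 2 fell and 0 rose, and 0 passed either way when A4 replicate 1, A12 replicate 1 or A12 replicate 2 was left out. Su(var)2-5, which encodes the heterochromatin protein HP1a, was at 24.1 and 33.8 FPKM against 60.7 and 37.9; the difference of −0.27 was not past the threshold (adjusted p = 0.425). The histone methyltransferase gene Su(var)3-9 had a listed 0 in all 4 larval libraries. Of 42 tested genes that lie inside pericentromeric heterochromatin 4 fell and 1 rose (median −0.24; 14 and 0 without centring), with 2 falls without A4 replicate 2 or A12 replicate 1 and 0 rises without A4 replicate 1 or A12 replicate 1. Yeti was at 20.7 and 28.2 FPKM against 88.0 and 56.9 and fell by 1.06, and nrm was at 6.31 and 5.39 against 3.71 and 3.02 and rose by 1.11. The genes lt and rl, classic subjects of variegation studies in heterochromatin, did not pass: lt was at 6.05 and 6.87 FPKM against 12.4 and 8.74 (−0.16, adjusted p = 0.451), rl at 7.39 and 6.76 against 15.1 and 9.84 (−0.25, adjusted p = 0.308). Nor did w, the white gene whose mottled eye colour is the usual readout of variegation (3.04 and 3.21 FPKM against 6.35 and 5.07, −0.24, adjusted p = 0.299). Mcm10, a replication factor gene of proximal 2L (21179941 to 21182812), was at 0.126 and 0.220 FPKM in A4 larvae and at 2.05 and 1.06 in A12 larvae; the genotypes did not overlap, but its mean lay below the filter of 1 FPKM and it was not tested.

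Calls were spread over the arms. On 2L, 2R, 3L, 3R and X, 13.3 to 16.0% of tested genes rose and 10.3 to 13.4% fell, and chromosome 2, which carries the rearrangement by its name, lay inside these ranges with 14.4% and 11.2% on 2L and 13.3% and 10.8% on 2R. On chromosome 4, 2.99% of 67 tested genes rose and 1.49% fell. Of 17 tested eye pigment genes 3 fell (2 without A4 replicate 1 or A12 replicate 1) and 1 rose: bw, an ABC transporter for red pigment precursors, was at 1.51 and 0.779 FPKM against 11.5 and 8.19 and fell by 1.88, and st, a partner of white, was at 2.73 and 3.27 against 0.60 and 0.639 and rose by 1.76.

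Lists of growth genes held few calls. Mitochondrial ribosomal proteins rose in 11.6% and fell in 1.45% of those tested, against 14.4% and 11.3% of all tested genes. limma called 0 of 86 tested cytoplasmic ribosomal proteins (3 higher and 1 lower at an unadjusted p under 0.05; 1 rose without A4 replicate 1), with a median of 0.07. Of 43 tested genes of DNA replication and the cell cycle, with a median of 0.06, 2 fell, cdc2 and polo, and 1 rose, dup; 0 fell without A4 replicate 1, A12 replicate 1 or A12 replicate 2, 1 fell without A4 replicate 2, and 2 rose without A4 replicate 1. The gene dup was at 1.76 and 2.28 FPKM in A4 larvae, was listed at exactly 0 in both A12 libraries and overlaps SRPK. Of 30 tested disc and neural patterning genes 1 fell, the proneural gene sc, and 13 fell without centring. The call of sc was lost without A4 replicate 1 or A12 replicate 1. The median was −0.40, and 4 of the 30 lay above the median of all tested genes. However, 8 of the 30 averaged under 1 FPKM in A4 larvae and so entered through A12, which favoured lower values. Of 13 tested genes of the Enhancer of split list 3 fell and 1 rose, with a median of −0.55 and 1 of the 13 above the median of all tested genes; 6 fell without A4 replicate 2, where E(spl)m2-BFM had been at 1.77 and 6.46 FPKM against 20.1 and 15.4, and 0 fell when any of the other libraries was left out. Of 69 tested mitochondrial ribosomal proteins 8 rose and 1 fell, with a median of 0.34 and 59 of the 69 above the median of all tested genes, but 3 of the 8 are the genes mRpL15, mRpL43 and mRpL47 that were listed at exactly 0 in both A12 libraries; 4 rose without A4 replicate 2 or A12 replicate 1, and 0 fell without A4 replicate 2, A12 replicate 1 or A12 replicate 2.

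Some zeros need separate treatment. In 75 genes both A4 libraries were at 1 FPKM or more and both A12 libraries under 0.1, and in 54 genes the reverse held; 68 of the former and 50 of the latter were listed at exactly 0 in the low genotype. Of these 129 genes 102 (79.1%) share bases with another gene row, against 43.2% of all tested genes. The set includes genes that every growing cell uses. mRpL47 was at 13.3 and 14.9 FPKM in A4 larvae and at 0 in both A12 larvae, and it overlaps the rows Rlb1 and Rlc1. Rpb11, a subunit of RNA polymerase II, was listed at 0 in both A4 larvae and at 27.9 and 15 FPKM in A12 larvae; it overlaps CLIP-190, and it was listed at 0 in all 4 adult libraries too. CycC, which overlaps CG3731, was at 0 in both A4 larvae and at 26.7 and 17.2 FPKM in A12 larvae. TpnC25D, a troponin C gene of the muscle list, was at 45.8 and 55.6 FPKM in A4 larvae and 0 in both A12 larvae and overlaps tkv. No difference is given here for genes listed at 0 in both libraries of a genotype, since an exact 0 can be a failed estimate and the size then rests on the pseudocount. Whether the zeros reflect the RNA or the assignment of fragments to overlapping rows was not tested. Leaving out the 432 tested genes with a larval zero gave 1346 that rose and 1014 that fell.

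A4 replicate 2 stood apart from the other larval libraries, and not in testis RNA alone. In it 274 genes were at 1 FPKM or more while under 0.1 in the other 3 larval libraries, against 25, 34 and 30 such genes for A4 replicate 1, A12 replicate 1 and A12 replicate 2. Their median there was 1.85 FPKM and their highest 87.9, that of snoRNA:Me28S-A982a, which was at 93.6 to 157.6 FPKM in the adult libraries. The 274 genes lay on X (23), 2L (64), 2R (63), 3L (48) and 3R (76). Of them 201 had no name beyond a CG or CR number, 102 were over 0.1 FPKM in an adult female library, and 20 belonged to the list of 53 testis and spermatogenesis genes. Of the 66 that passed the filter limma called 0 (12 at an unadjusted p under 0.05), so these genes added no calls of their own to the counts above. The summed FPKM of the testis list was 10.3 in A4 replicate 1, 174.7 in A4 replicate 2, and 21.2 and 16.3 in A12 replicates 1 and 2, and 3, 31, 4 and 3 of its members were at 1 FPKM or more. Mst84Db, a sperm tail protein gene, was at 15 FPKM in A4 replicate 2 and at 0 in the other larval libraries, and betaTub85D, the testis-specific tubulin, was at 7.0 against 0.170 to 0.251.

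The same library was high for the roX RNAs, which coat the male X chromosome: roX2 was at 0.338 and 34.9 FPKM in A4 replicates 1 and 2 and at 4.65 and 0.277 in A12 replicates 1 and 2, and roX1 at 2.07 and 12.4 against 3.04 and 1.21. A12 replicate 1 was thus the second library with raised roX2. Y-linked genes were near 0 in all 4 larval libraries. Of 7 listed, fdy was highest in A4 replicate 2 with 0.373 FPKM, after 0.219 in A4 replicate 1, and the summed FPKM of the 7 was 0.274, 0.461, 0.0390 and 0.0947 in the 4 larval libraries in the same order. Of the 7, 0 were listed at 0 in A4 replicate 2, against 3 in A4 replicate 1 and 6 in each A12 library. A4 replicate 2 thus carried RNA of testis and roX genes and a trace of every listed Y-linked gene, at most 0.373 FPKM. Traces of Y-linked genes were not particular to this library. In adult females fdy was at 1.06 and 0.737 FPKM in A4 replicates 1 and 2 and at 0.0811 and 0.0932 in A12 replicates 1 and 2. The source of the testis, roX and Y-linked RNA in A4 larvae replicate 2 was not tested. Ovary genes did not set A4 replicate 2 apart from A4 replicate 1. The deposited sums over 53 genes were 79.1 and 84.3 in A4 replicates 1 and 2, below the 135 and 99.1 of A12 replicates 1 and 2. By limma 0 of 15 tested were called (1 higher and 1 lower at an unadjusted p under 0.05). This absence of calls did not hold without A4 replicate 1 or A12 replicate 2. Of 18 tested testis genes 14 passed the filter only through A4 replicate 2, so no count over them is read; bol, which is not 1 of them, rose (1.99 and 2.97 FPKM against 1.20 and 0.796). Of 13 tested dosage compensation and sex determination genes fru rose, from 1.42 and 1.81 FPKM in A12 larvae to 6.72 and 7.84 in A4 larvae (2.12, SE 0.26, adjusted p = 0.00184), and it rose without A4 replicate 2 too; 3 rose without A4 replicate 1 and 1 fell without A12 replicate 2. The level over the whole gene does not tell its sex-specific isoforms apart.

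**Figure D4:**
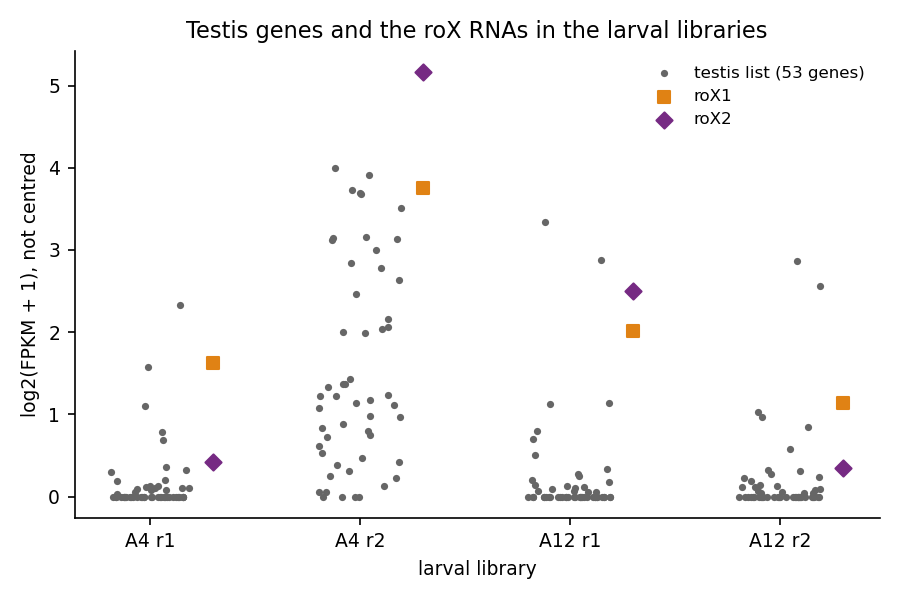
Level, as log2(FPKM + 1) without centring, of 53 testis-list genes (points) and of roX1 and roX2 in each of the 4 larval libraries. A4 replicate 2 stands apart, with 31 of the 53 genes at 1 FPKM or more against 3, 4 and 3 in the others.

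Where A4 replicate 2 mattered to single called genes, it did so by size and not by sign. PGRP-SC1a, a gut peptidoglycan recognition amidase, was at 1.54 and 22.9 FPKM in A4 larvae and at 0 and 0.412 in A12 larvae, so its difference of 3.17 became 1.59 without that library. CG5892 was at 12.4 and 2.62 FPKM against 0.760 and 0.446, and its difference of 2.58 became 3.57. CG32573 was at 0 and 2.92 FPKM against 38.9 and 39.4, and its difference of −3.88 became −4.83. CG34247 moved from −2.23 to −3.26 and CR44138 from 2.18 to 3.20. In all of these both A4 libraries lay on one side of both A12 libraries.

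Most larval calls had no matching call in adult females of the same genotypes, which alone does not show that the adult difference was absent. A test of the difference between stages passed for 804 of the 1314 genes that rose in larvae and 518 of the 1025 that fell. It also passed for 134 genes without a larval call. In adults 38 of the 9106 genes passed in either direction (0.417%), 13 higher and 25 lower in A4, and the median size of the difference was 0.212 against 0.398 in larvae. The test of the difference between stages passed for 1456 genes (16.0%), and for 1141 without A4 replicate 2. Drsl5 differed by −9.44 in larvae and by 0.54 in adults (adult adjusted p = 0.337), and the stages differed by −9.99 (SE 0.29, adjusted p = 7.35e-05). CG10219 was at 60.7 and 55.8 FPKM against a listed 0 in both A12 larvae and differed by −0.53 in adults; its model overlaps Plip. A few genes passed at both stages. LysX and LysC fell in both, with adult differences of −4.16 and −5.97; their stages differed for LysX (adjusted p = 0.0218) and not for LysC (adjusted p = 0.865). snoRNA:Psi28S-1135e was at 11.7 and 10.6 FPKM in A4 larvae and at 7093 and 3501 in A12 larvae, and it fell by 8.23 in larvae; in adults it was listed at 0 in both A4 libraries and was at 4642 and 8909 FPKM in A12. CG3588 rose at both stages, by 6.87 and 2.26.

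Opposite calls were few: 4 genes rose in larvae and fell in adults (arg, CG9682, CG14615 and CG9836) and 2 fell in larvae and rose in adults (CG12272 and Oat). arg, arginase, was at 10.8 and 15.4 FPKM in A4 larvae and listed at 0 in both A12 larvae, whereas in adults it was listed at 0 in both A4 libraries. CG12272 was listed at 0 in both A4 larvae, at 14.0 and 13.6 FPKM in A12 larvae, and listed at 0 in both A12 adults. Both share bases with other rows, arg with elav and CG4293 and CG12272 with Pgm.

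**Figure D5:**
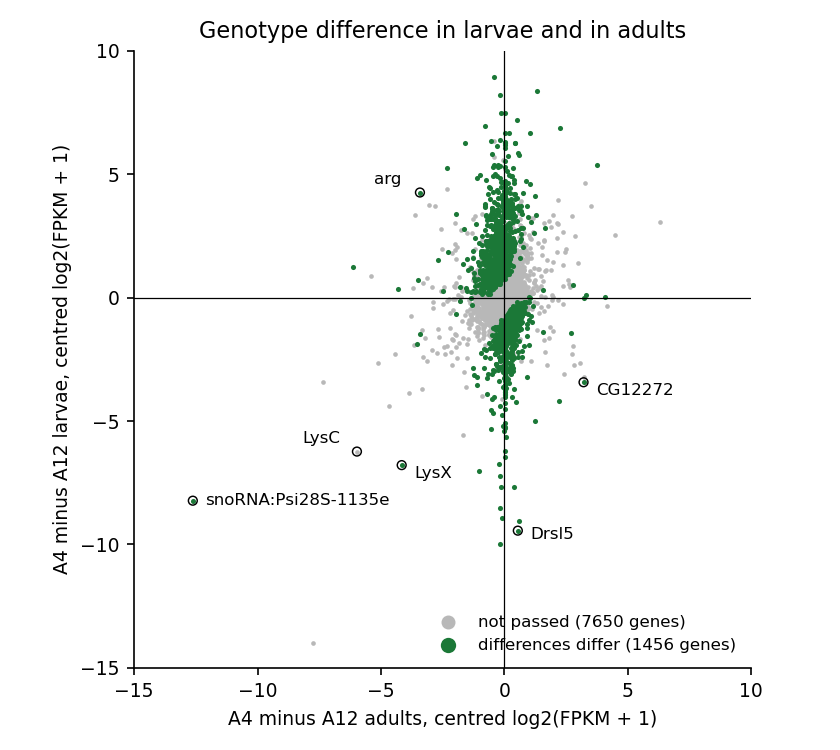
A4 minus A12 difference in adults (x axis) against that in larvae (y axis) for the 9106 tested genes, both on the centred log2(FPKM + 1) scale. Green marks the 1456 genes whose differences at the 2 stages differed by the test, grey the 7650 that did not pass; most green points lie near 0 on the adult axis and spread along the larval one.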

How the data were processed

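Per the labels, RNA of whole females was depleted of ribosomal RNA, and polyA libraries were prepared with the TruSeq kit. The submitters' processing notes name Bowtie, Bowtie2, TopHat 0.6, Cufflinks and the dm3 genome; their roles, the annotation and any use of strand are not given in the sources used. The authors deposited 1 FPKM value per gene and library (fragments per kilobase of gene, scaled to the size of the library), with a status code for each; no counts were used. Depth was therefore read from the deposited confidence bounds as fragments per FPKM. Coordinates are those of the files, with 1 added to the start.

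Of 15296 gene rows, those with an OK status whose 4 larval libraries averaged 1 FPKM or more were tested (9106); 200 rows were not OK in a larval library and 2 adult values were set missing. The deposited FPKM values were changed here to log2(FPKM + 1), each library was centred on its median, and limma 3.58.1 (R 4.3.3; trended eBayes, Benjamini-Hochberg over all tested genes, threshold 0.05) was fitted to the 4 groups of 2, so all 8 libraries share 1 estimate of the spread. The larval contrast is the result; the interaction compares it with the adult one. With A4 replicate 2 left out, A4 replicate 1 is assumed to vary like the other groups. Tables were made with Python 3.11.15, pandas 2.3.3 and numpy 2.4.6. The fit was tested on simulated data.

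Gene lists (50) and members were chosen with earlier results of these data known. Genes named were the 15 with the largest rise and the 15 with the largest fall that passed with and without A4 replicate 2 without overlap, up to 4 per list with the smallest p, 6 by the interaction, 6 that moved most without A4 replicate 2, the 8 highest genes seen in it alone, and roX1, roX2, w, lt, rl, Mcm10, Su(var)2-5 and Su(var)3-9: 235 in all, 185 past the threshold. Other genes named (such as EcR, br, Ddc, members beside a small count, overlapping partners and the sperm genes) were picked with their values in view.

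Replicate numbers are shared between groups, but the correlation of same-numbered deviations was 0.064, under the 0.1 taken to show pairing, so no block was used. Alternatives were each library left out, pseudocounts of 0.1 and 5, no filter on level, a filter at 5 FPKM, no centring, quantile normalization, scaling before the log, larval libraries alone, untrended and robust eBayes, a replicate block and a threshold of 0.01. Chosen after seeing the data were leaving out small RNA genes, leaving out genes listed at 0, and scaling before the log without A4 replicate 2. Of the tested genes 43.2% share bases with another gene row, and 105 symbols occur at several loci, so values of overlapping or copied genes are uncertain.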

Additional observations from a re-analysis of the deposited data

Results flagged for a closer look

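In 1456 genes the genotype difference in larvae was unlike that in adult females by the interaction term of the limma fit (adjusted p under 0.05). The 6 genes with the smallest interaction p are given here as the larval minus the adult difference on the centred log2(FPKM + 1) scale. Drsl5 differed between the stages by −9.99 and CG7924 by −9.65. CG12522 differed by 6.23; in adults its difference was 0.03. CG10219 (6.87), CG12272 (−6.64) and arg (7.68) were each listed at exactly 0 in both larval libraries of one genotype, so these sizes rest on the pseudocount and are no folds, and each shares bases with another gene row. In these 6 genes both larval libraries of A4 lay on one side of both of A12. For Drsl5, CG7924 and CG10219, also named by size, this was a condition of being named.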

How the results depend on the processing

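Of 185 named genes past the threshold none reversed in the alternative settings in which it was tested. Of the 18 settings 15 tested all 185, and 28 were not tested with the 5 FPKM filter, 31 without genes listed at 0 and 1 without small RNA genes. Named genes were chosen for large differences, small p or, in part, for passing without A4 replicate 2. Their sign and call were thus likely to hold and do not stand for all called genes, which kept their calls less often without that library. The number that lost the call was 36 without A12 replicate 1, 30 with larval libraries only, 29 without A4 replicate 1, 20 without A12 replicate 2, 13 without A4 replicate 2, and 16 or fewer of those tested in each other setting. With 1 larval library left out at a time, genes that rose numbered 742 to 1258 (1314 with all), genes that fell 503 to 788 (1025), and genes whose stages differed 902 to 1492 (1456); the lowest value of each came without A12 replicate 1. Without centring 861 rose and 2637 fell, after a shift of −0.47 in the median gene was kept. With the spread from larval libraries only, 631 fell; that fit has fewer libraries. At a threshold of 0.01, 678 rose, 457 fell and 464 differed between stages. With the replicate block 1347 rose, 1028 fell and 1488 differed between stages; the numbers share no stated origin. The cause of the other shifts was not tested. With 2 libraries a group and no counts, small changes of weak genes could not be detected, and called shares depend on the spread borrowed from adults.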
